A study of Mus musculus with 9 samples.

Results

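The NRF2 oxidative stress response was examined in mouse skin through 10 genes chosen by name from the core of the pathway, out of 17943 genes in the deposited table. They are the transcription factor gene *Nfe2l2*, which encodes NRF2, its inhibitor gene *Keap1*, and the genes *Nqo1*, *Hmox1*, *Gclc*, *Gclm*, *Txnrd1*, *Srxn1*, *Slc7a11* and *Osgin1*, all known as NRF2 targets. All 10 had at least 10 counts over the 9 mice and were among the 16426 genes tested. Bulk RNA-Seq libraries came from 5 control and 4 *Supt6*-KO mice, all harvested on day 10 after the last injection. *Supt6*-KO mice carried K14-CreERT and *Supt6* fl/fl and received tamoxifen intraperitoneally on consecutive days. Control mice carried *Supt6* fl/fl, which both groups share, and received corn oil. The groups therefore differed in the Cre transgene, in tamoxifen and in *Supt6*, and these cannot be told apart here. The K14 promoter drives Cre in basal keratinocytes and other K14-positive epithelia, whereas the RNA came from whole skin. The sample labels name ear skin, wild-type mice and a *Supt6* knockdown where the study's text names dorsal skin and a conditional knockout. Injections fell in the first telogen, a resting stage of the hair cycle, and the age in weeks of the sequenced mice is not given in the sources used here.

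NRF2 is a basic leucine zipper transcription factor that pairs with small MAF proteins and binds antioxidant response elements (AREs) in the control regions of its targets. In unstressed cells KEAP1 holds NRF2 and presents it to a CUL3 ubiquitin ligase, so that NRF2 protein is short-lived, and electrophiles or oxidants that modify cysteines of KEAP1 let NRF2 accumulate. Control is thus mostly at the level of the protein, which RNA counts do not measure. In the epidermis the pathway is known for protecting keratinocytes from ultraviolet light and reactive chemicals and for regulating genes of the cornified layer. SPT6, the protein product of *Supt6*, is a histone chaperone and elongation factor of RNA polymerase II.

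Estimated counts summed to between 29627341 and 30491197 per control mouse (median 29870087) and to between 30597189 and 30967107 per *Supt6*-KO mouse (median 30794136). Levels are given as CPM, the counts of a gene relative to the size of its library, scaled by the TMM factors of edgeR, which correct for differences in library composition. These factors were 1.244, 1.198, 1.219, 1.239 and 1.315 in the controls and 0.781, 0.674, 0.706 and 0.910 in the *Supt6*-KO mice. The 2 groups of factors did not overlap, so values under other scalings are given below for the genes and lists whose call or direction they change. The log2 fold change had a median over the genes tested of -0.072 with TMM factors and -0.759 with library totals alone. *Supt6* (NCBI gene 20926, chromosome 11, 78206749 to 78245972, reverse strand, GRCm38) had from 2068 to 3798 counts per control and 684, 503, 478 and 791 per *Supt6*-KO mouse. The groups did not overlap, with *Supt6*-KO mice at 25.7 ± 3.31 CPM (SD, n = 4) against 76.5 ± 17.2 CPM (SD, n = 5) and a two-sided exact permutation p = 0.0159, the smallest that these group sizes allow. Its log2 fold change was -1.57 with TMM factors, -2.26 with library totals and -0.73 with the length trend removed (explained with the scalings below), at a length percentile of 90.4.

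Of the 10 NRF2 genes, 7 were higher in *Supt6*-KO skin, 2 were lower and 1 did not pass the test (edgeR quasi-likelihood test, adjusted p under 0.05). Over all genes tested, 34.1% were higher and 36.8% were lower by the same rule. These shares also stand beside each count of list genes or cell type markers given below. By size, 5 of the 10 were higher by at least 2-fold, compared with 20.9% of all genes, and 0 were lower by at least 2-fold, compared with 24.9%. In 6 genes every *Supt6*-KO mouse was above every control mouse, and in 2 genes every one was below, where 28.9% and 31.8% of all genes were separated in these ways. The median log2 fold change of the 10 genes was 1.15, and with library totals, without the TMM factors, 5 of them were higher and 3 lower, where 16.9% of all genes were higher and 54.6% lower. In bulk skin, fewer cells of a type and less RNA per cell cannot be told apart, and this holds for every comparison made here.

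**Figure D1:**
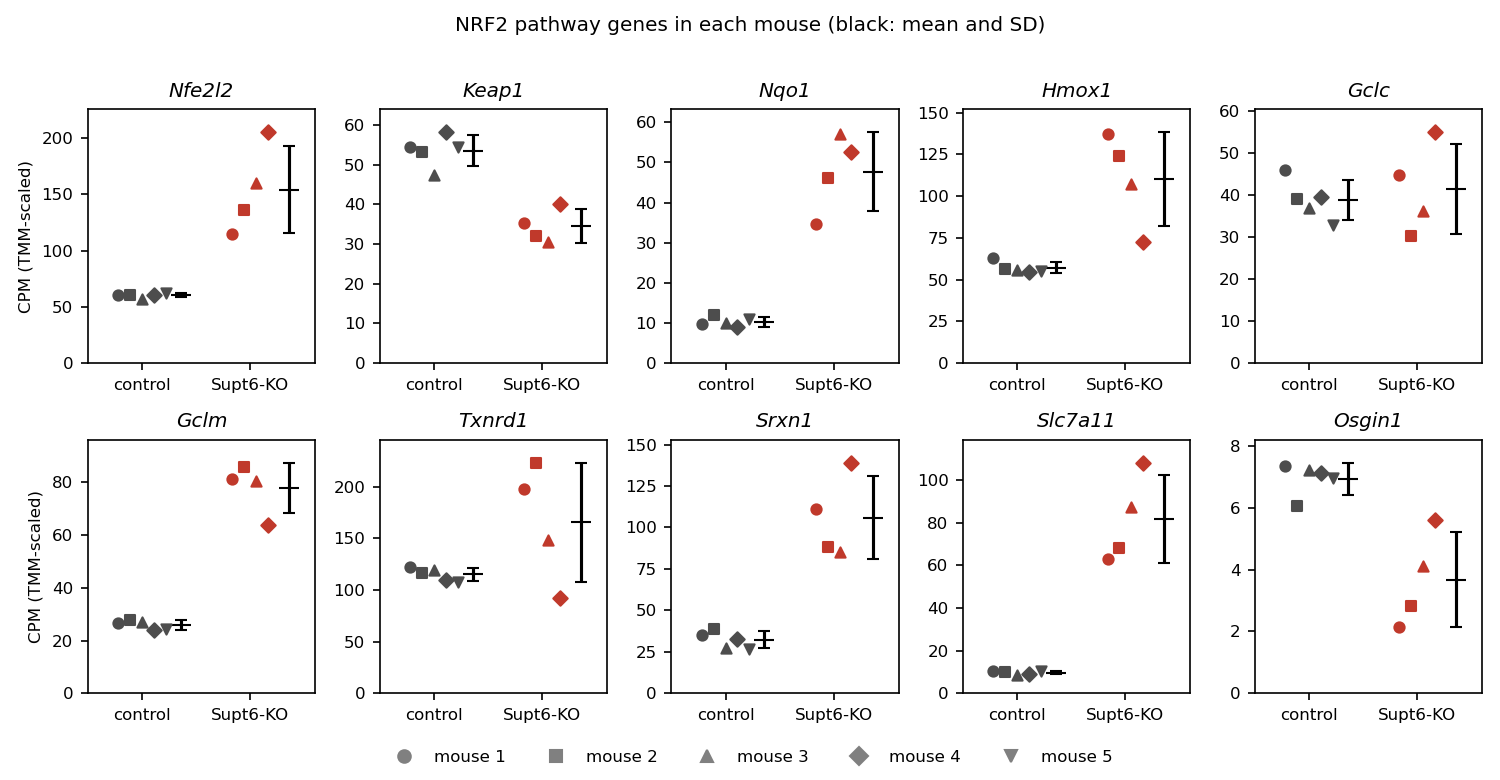
Level of each of the 10 NRF2 genes in each mouse, in TMM-scaled CPM on a linear axis that starts at 0. Gray points are the 5 control mice, red points the 4 *Supt6*-KO mice, the marker shape gives the mouse number, and black bars give the mean and SD. *Slc7a11* shows the widest separation as a ratio of means (8.34-fold), *Gclc* overlaps, and for *Txnrd1* 1 *Supt6*-KO mouse lies below all controls.

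The promoters of the NRF2 genes were searched for the letters of the elements on which such genes are known to be read. RefSeq promoter windows of GRCm38.p6, covering 250 bases before and 50 bases after a transcript start, were present for 8 of the 10 genes. These 8 genes had 10 windows in all, as a gene can have more than 1. Both strands were searched for the ARE core TGACNNNGC, the AP-1 motif TGANTCA, the longer ARE form TGANTCAGC, which always contains an AP-1 motif, and the amino acid response element TGATGNAA. The ARE core was found in 4 of the 10 windows, and in 12.4% of all 32851 windows. The 4 were of *Nfe2l2*, *Gclm*, *Txnrd1* and *Srxn1*, in *Srxn1* just downstream of the start. The AP-1 motif was found in *Osgin1* and *Srxn1* and in 7.81% of all windows, and the longer form in the same 2 genes and in 1.19%. The amino acid response element was found in *Slc7a11* alone among the 8, and in 3.97% of all windows. The windows of *Keap1* and *Nqo1* held none of these letters, which says nothing of other control regions. A match is a description of the letters and not evidence of binding. The stretches that hold the upstream matches are shown because these genes carry the results, 5′ to 3′ on the strand of the gene, with the motifs in capitals. The *Nfe2l2* stretch is chr2:75704875-75704913 on the reverse strand, with the ARE core starting at -240 from the transcript start. *Srxn1* is shown at chr2:152105402-152105507 on the forward strand, with an AP-1 motif at -102 and the longer ARE form at -45. *Slc7a11*, at chr3:50443633-50443699 on the reverse strand before a start inside the gene, holds the amino acid response element at -66 and again, reading on the other strand, at -47. The *Gclm* stretch is chr3:122245403-122245451 on the forward strand, and *Txnrd1* is shown at chr10:82859094-82859142 on the forward strand, before a transcript start inside the gene. In both the ARE core reads on the other strand, at -134 in *Gclm* and at -92 in *Txnrd1*. *Osgin1*, at chr8:119437028-119437076 on the forward strand, also lies before a start inside the gene and has the longer ARE form on the other strand at -99.
Nfe2l2: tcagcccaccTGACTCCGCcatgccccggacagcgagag
Srxn1: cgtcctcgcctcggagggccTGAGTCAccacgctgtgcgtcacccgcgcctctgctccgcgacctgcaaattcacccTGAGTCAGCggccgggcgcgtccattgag
Slc7a11: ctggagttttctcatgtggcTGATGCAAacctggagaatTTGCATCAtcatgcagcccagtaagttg
Gclm: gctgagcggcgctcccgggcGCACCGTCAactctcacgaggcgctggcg
Txnrd1: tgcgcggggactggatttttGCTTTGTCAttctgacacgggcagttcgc
Osgin1: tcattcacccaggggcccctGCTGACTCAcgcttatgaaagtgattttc

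The factor and its inhibitor moved in opposite directions. *Nfe2l2* (NCBI gene 18024, chromosome 2, 75675513 to 75704663, reverse strand), whose promoter window holds an ARE core, had 60.9, 60.4, 57.1, 60.7 and 62.6 CPM in the controls and 115, 136, 160 and 205 CPM in the *Supt6*-KO mice. The controls lay close together and every *Supt6*-KO mouse was above them. The log2 fold change was 1.35 (standard error, SE, 0.15, edgeR adjusted p = 1.4e-05), from 60.4 ± 1.99 to 154 ± 39.0 CPM (SD, n = 5 and 4), or 2.55-fold. *Keap1* (NCBI gene 50868, chromosome 9, 21229730 to 21239332, reverse strand) had 54.5, 53.3, 47.3, 58.1 and 54.4 CPM in the controls and 35.4, 32.1, 30.4 and 40.2 CPM in the *Supt6*-KO mice. The groups again did not overlap, with the *Supt6*-KO mice lower at 64.5% of the control mean. For *Keap1* the log2 fold change was -0.63 (SE 0.11, edgeR adjusted p = 0.00043).

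The ratio of the counts of 2 genes within a mouse does not depend on how libraries are scaled against each other. The ratios were not corrected for the length trend described below. With that trend removed the log2 fold change was 1.3 for *Nfe2l2* and -0.41 for *Keap1*. The *Nfe2l2* to *Keap1* count ratio was 1.12, 1.13, 1.21, 1.04 and 1.15 in the controls and 3.24, 4.24, 5.25 and 5.11 in the *Supt6*-KO mice. It was thus close to even in every control and 3.88-fold higher in the *Supt6*-KO mice, a difference of 1.96 on the log2 scale. The two-sided exact permutation p was 0.0159, also after adjustment over the 3 ratios tested, and 4 of 4 *Supt6*-KO mice were above all controls.

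Cystine uptake and the making of glutathione, the main small thiol of the cell, were represented by 3 genes that behaved differently. *Slc7a11* (NCBI gene 26570, chromosome 3, 50364936 to 50499087, reverse strand) encodes the xCT subunit of the cystine and glutamate exchanger and is a known target of both NRF2 and ATF4, the factor of the amino acid response element seen in its promoter window. It had 10.5, 10.0, 8.83, 9.01 and 10.6 CPM in the controls and 63.0, 67.9, 87.3 and 108 CPM in the *Supt6*-KO mice. This was the widest change among the 10 genes, with even the lowest *Supt6*-KO mouse far above the highest control. The log2 fold change was 3.06 (SE 0.17, edgeR adjusted p = 1.6e-07), or 8.34-fold, from 9.78 ± 0.818 to 81.6 ± 20.5 CPM (SD, n = 5 and 4). Melanocytes, pigment cells in which *Slc7a11* is known to feed pheomelanin synthesis, were followed by 7 markers. Of these, 6 were higher and 0 lower, where 34.1% of all genes were higher and 36.8% lower, and the most abundant was *Dct*. Their summed level was 65.8, 48.1, 48.2, 52.4 and 67.3 CPM in the controls and 102, 155, 182 and 156 CPM in the *Supt6*-KO mice. No melanocyte marker fell below the filter, and their part in the *Slc7a11* result was not tested.

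Glutamate cysteine ligase, the enzyme of the rate-limiting step of glutathione synthesis, consists of a catalytic subunit from *Gclc* and a modifier subunit from *Gclm*. *Gclm* (NCBI gene 14630, chromosome 3, 122245487 to 122267215, forward strand) had 26.5, 28.0, 27.0, 23.9 and 24.3 CPM in the controls and 81.1, 85.8, 80.5 and 63.9 CPM in the *Supt6*-KO mice. All 4 *Supt6*-KO mice were above the controls, and the log2 fold change was 1.59 (SE 0.11, edgeR adjusted p = 8e-07), or 3.00-fold. *Gclc* (NCBI gene 14629, chromosome 9, 77754535 to 77794489, forward strand) had 46.0, 39.1, 37.0, 39.5 and 32.8 CPM in the controls and 44.8, 30.2, 36.1 and 54.9 CPM in the *Supt6*-KO mice. The groups overlapped, with 1 *Supt6*-KO mouse above all controls and 1 below all controls. *Gclc* did not pass the test, at a log2 fold change of 0.09 (95% interval -0.28 to 0.47, edgeR adjusted p = 0.63), and with library totals the sign turned, to -0.56 (adjusted p = 0.046).

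The balance of counts between the 2 subunits turned. The *Gclc* to *Gclm* count ratio was 1.74, 1.40, 1.37, 1.66 and 1.35 in the controls and 0.552, 0.352, 0.448 and 0.859 in the *Supt6*-KO mice. Counts of the catalytic subunit exceeded those of the modifier in every control and were fewer in every *Supt6*-KO mouse, and the ratio was 2.85-fold lower on average (difference -1.51 on the log2 scale, two-sided exact permutation p = 0.0159, adjusted over 3 ratios 0.0159). The 2 transcripts differ in length, so the ratio does not compare the amounts of the 2 RNAs. Its difference between groups also includes the length trend described below, for which the ratio was not corrected. With that trend removed the log2 fold change was 0.35 for *Gclc* (edgeR adjusted p = 0.057) and 1.39 for *Gclm*, which lie closer together.

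Reduction of thioredoxin and of oxidised peroxiredoxins was represented by *Txnrd1* and *Srxn1*. *Srxn1* (NCBI gene 76650, chromosome 2, 152105524 to 152111376, forward strand) encodes sulfiredoxin, which restores overoxidised peroxiredoxins, and its promoter stretch holds the AP-1 motif and the longer ARE form. It had 35.1, 39.1, 27.5, 33.0 and 26.9 CPM in the controls and 111, 88.3, 85.4 and 139 CPM in the *Supt6*-KO mice. Every *Supt6*-KO mouse was above every control, and the log2 fold change was 1.71 (SE 0.17, edgeR adjusted p = 5.7e-06), or 3.28-fold. *Txnrd1* (NCBI gene 50493, chromosome 10, 82833951 to 82897724, forward strand), the cytosolic thioredoxin reductase, had 122, 117, 119, 110 and 108 CPM in the controls and 198, 223, 149 and 92.3 CPM in the *Supt6*-KO mice. In all, 3 *Supt6*-KO mice were above all controls and *Supt6*-KO mouse 4 was below all of them. Its log2 fold change was 0.52 (SE 0.21, edgeR adjusted p = 0.043), the closest to the threshold of the 7 higher genes.

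The *Txnrd1* call was lost in 8 of the 9 fits that left out 1 mouse. When *Supt6*-KO mouse 4 was left out, its log2 fold change was 0.72 (adjusted p = 0.00042). Without *Supt6*-KO mouse 1, 2 or 3 it was 0.42, 0.33 or 0.57 with adjusted p of 0.12, 0.17 and 0.056, and leaving out any 1 control gave adjusted p from 0.06 to 0.08. With library totals it was -0.21 (edgeR adjusted p = 0.29), so that both the call and its direction depended on the scaling.

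Quinone reduction and heme breakdown were represented by *Nqo1* and *Hmox1*. *Nqo1* (NCBI gene 18104, chromosome 8, 107388225 to 107403205, reverse strand) encodes a quinone reductase that is widely used as a readout of NRF2, and it had 9.71, 12.1, 9.94, 8.95 and 10.9 CPM in the controls. In the *Supt6*-KO mice it had 34.7, 46.2, 57.2 and 52.7 CPM, all above the controls. *Nqo1* thus had a log2 fold change of 2.21 (SE 0.16, edgeR adjusted p = 8.2e-07), or 4.62-fold, the second widest of the 10 with TMM factors. With the length trend removed *Srxn1*, at 1.77, was ahead of *Nqo1*, at 1.70. *Hmox1* (NCBI gene 15368, chromosome 8, 75093618 to 75100593, forward strand), which encodes the inducible heme oxygenase, had 62.9, 56.5, 55.5, 54.8 and 55.4 CPM in the controls and 137, 124, 107 and 72.3 CPM in the *Supt6*-KO mice. The groups did not overlap, but *Supt6*-KO mouse 4 lay close to the controls. The log2 fold change of *Hmox1* was 0.95 (SE 0.16, edgeR adjusted p = 0.0003), or 1.93-fold, and with library totals it was 0.23 (adjusted p = 0.18).

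Red blood cells bring the heme that induces *Hmox1*, and macrophages are a known site of its expression. Of 5 erythroid markers, 4 were higher and 0 lower, where 34.1% of all genes were higher and 36.8% lower, and *Hba-a1* was the most abundant. Their summed level was 159, 102, 102, 131 and 270 CPM in the controls and 460, 584, 659 and 126 CPM in the *Supt6*-KO mice. *Supt6*-KO mouse 4, the lowest of its group for *Hmox1*, was thus also within the control range for these markers, whereas the order of the other 3 mice differed between the 2 measures. Of 8 macrophage markers, 6 were higher and 1, *Csf1r*, was lower. The most abundant by mean was *Mrc1* in the *Supt6*-KO mice, at 80.3 CPM. In the controls it was *Csf1r*, at 41.9 CPM against 11.8 CPM in the *Supt6*-KO mice. Summed levels of the 8 markers were 155, 129, 97.9, 149 and 251 CPM in the controls and 267, 243, 269 and 310 CPM in the *Supt6*-KO mice. Mouse 4 was the highest of its group for the macrophage sum. The globin genes share reads among near-identical copies and are uncertain singly, and the part of either cell type in the *Hmox1* result was not tested.

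The *Nqo1* to *Hmox1* count ratio was 0.155, 0.214, 0.179, 0.164 and 0.197 in the controls and 0.253, 0.373, 0.535 and 0.728 in the *Supt6*-KO mice. It was 2.43-fold higher in the *Supt6*-KO mice, which were all above the controls (difference 1.28 on the log2 scale, two-sided exact permutation p = 0.0159, adjusted over 3 ratios 0.0159). The rise of *Nqo1* was therefore larger than that of *Hmox1* whatever the scaling between libraries.

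*Osgin1* was the one NRF2 target of the 8 that was lower. This gene (NCBI gene 71839, chromosome 8, 119425882 to 119446257, forward strand) encodes an oxidative stress induced growth inhibitor, and its promoter stretch holds the same longer ARE form as that of *Srxn1*. It had 7.33, 6.05, 7.23, 7.11 and 6.95 CPM in the controls and 2.13, 2.83, 4.12 and 5.60 CPM in the *Supt6*-KO mice. No *Supt6*-KO mouse reached the lowest control, and their mean was 52.9% of that of the controls. This corresponds to a log2 fold change of -0.91 (SE 0.25, edgeR adjusted p = 0.0067). The counts behind these values were 221 to 274 in the controls and 51, 59, 90 and 156 in the *Supt6*-KO mice, the fewest among the 10 genes.

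The authors' TPM values, which are per transcript length and were used for 5 controls and *Supt6*-KO mouse 4, order the genes by level. In the controls *Hmox1* was the highest at 72.3 ± 9.40 TPM (SD, n = 5), followed by *Txnrd1* at 58.9 ± 5.39 and *Nfe2l2* at 44.2 ± 6.72 TPM. *Keap1* had 28.7 ± 4.85 TPM, *Gclm* 23.4 ± 1.73, *Srxn1* 20.4 ± 2.67 and *Gclc* 19.8 ± 2.65 TPM. *Nqo1* had 13.3 ± 2.07 TPM, *Osgin1* 6.68 ± 1.08 and *Slc7a11* 1.75 ± 0.317 TPM. Neighbours in this order did not overlap between *Nfe2l2* and *Keap1*, between *Gclc* and *Nqo1*, between *Nqo1* and *Osgin1* and between *Osgin1* and *Slc7a11*, whereas the other neighbours overlapped. *Slc7a11*, the gene with the widest change, was thus the least abundant per length in control skin. In *Supt6*-KO mouse 4 the highest level was that of *Nfe2l2* at 75.2 TPM, and *Slc7a11* had 9.61, *Nqo1* 34.2, *Srxn1* 44.5 and *Gclm* 29.1 TPM, each above all 5 controls. TPM does not correct for library composition, and on this scale *Hmox1* at 46.1, *Txnrd1* at 23.9, *Gclc* at 14.1, *Keap1* at 10.4 and *Osgin1* at 2.70 TPM were below all controls in that mouse. For *Hmox1* and *Gclc* this is opposite to their CPM, by which the mouse was above all controls.

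*Supt6*-KO mice differed among themselves, and mouse 4 stood at an end of its group for most of the 10 genes. It was the highest of the 4 for 6 genes, *Nfe2l2*, *Keap1*, *Gclc*, *Srxn1*, *Slc7a11* and *Osgin1*, and the lowest for 3 of them, *Hmox1*, *Gclm* and *Txnrd1*. It was also the highest for 34 and the lowest for 40 of the 104 other genes of the antioxidant network described below. The same mouse had 9613 CPM of *Krt14*, the keratin of basal keratinocytes, against 4730, 3114 and 3962 in the other *Supt6*-KO mice, and 7775 CPM of *Krt10*, the keratin of suprabasal cells, against 19562, 19847 and 18223. Of the other keratinocyte markers, *Krt5* at 3669 CPM was also the highest of its group in this mouse. *Krt15* at 239, *Col17a1* at 112 and *Krt1* at 7264 CPM were the lowest, so the basal markers did not move as one. Without this mouse, 7 NRF2 genes were again higher and 2 lower, *Gclc* had a log2 fold change of -0.08 (edgeR adjusted p = 0.64), and that of *Nfe2l2* was 1.18.

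The scaling moved all 10 values downward when only library totals were used. Then 5 genes, *Nfe2l2*, *Nqo1*, *Gclm*, *Srxn1* and *Slc7a11*, were still higher, with log2 fold changes of 0.68, 1.51, 0.88, 1.06 and 2.39. *Keap1* at -1.31 and *Osgin1* at -1.57 were still lower, and *Gclc* was called lower as well. Fold changes in these libraries also followed transcript length, estimated from counts and TPM. When genes were divided into 3 equal classes by length, the median log2 fold change was 0.68 in the short class, -0.06 in the middle class and -0.73 in the long class. *Slc7a11*, at the 97.7th length percentile, went against this trend, and its log2 fold change was 4.12 once the trend was removed. *Nqo1* at the 20.1st and *Hmox1* at the 20.7th percentile fell to 1.70 and 0.45, and *Txnrd1* at the 62.9th went up to 0.80 (edgeR adjusted p = 0.0078). With the trend removed the same 7 genes were higher and the same 2 lower, *Keap1* at -0.41 and *Osgin1* at -1.16.

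**Figure D2:**
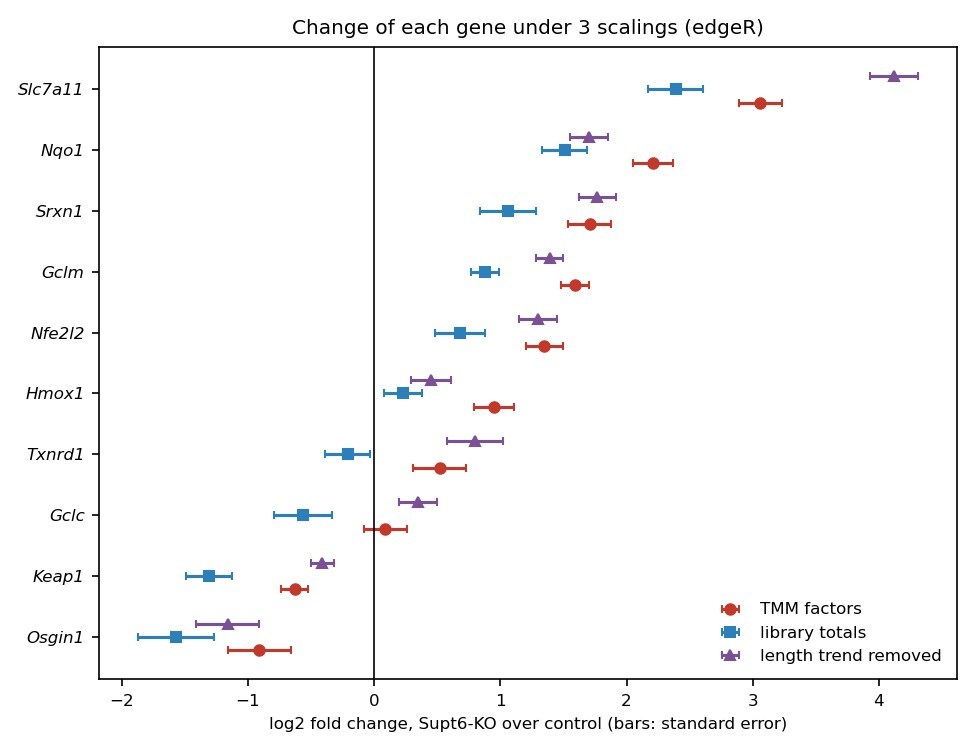
Log2 fold change of each NRF2 gene, *Supt6*-KO over control, with bars for the standard error, under TMM factors (red circles), library totals (blue squares) and TMM factors with the length trend removed (purple triangles). *Txnrd1* and *Gclc* lie below 0 with library totals and above 0 otherwise, and the other 8 genes keep their sign in all 3.

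Beyond these 10 genes, 105 genes of the antioxidant network were listed by role in 10 lists, of which 104 were tested, since the exporter gene *Abcc2* had too few counts. Of these, 49 were higher (47.1%), 26 were lower (25%) and 29 did not pass the test, beside 34.1% and 36.8% of all genes. In 40 genes every *Supt6*-KO mouse was above every control and in 20 every one was below, which 28.9% and 31.8% of all genes were. The median log2 fold change of the 104 genes was 0.40, compared with -0.072 for all genes. With library totals 29 were higher (27.9%) and 45 lower (43.3%), beside 16.9% and 54.6% of all genes. With the length trend removed 43 were higher (41.3%) and 38 lower (36.5%), beside 34.1% and 33.8%. The shares of all genes given here, under each scaling, also stand beside the counts of each list below. Several of the lists hold short transcripts, and lists with a low median length percentile are named with it.

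Among 16 partners and regulators of NRF2, 4 were higher and 9 lower, with a median log2 fold change of -0.38 that was -1.07 with library totals (3 higher, 11 lower) and -0.05 with the length trend removed (4 higher, 7 lower), and 2 were higher with at least 10 counts in every mouse. *Nfe2l1*, a related factor that controls proteasome genes and the most abundant of the list in the controls, went from 351 ± 24.8 to 120 ± 22.9 CPM (SD, n = 5 and 4; log2 fold change -1.55 with SE 0.15, edgeR adjusted p = 4.4e-06). *Bach2*, a repressor that competes for related sites, went from 3.65 ± 0.766 to 0.721 ± 0.120 CPM (-2.34, edgeR adjusted p = 6.6e-06), and *Crebbp*, a coactivator and acetyltransferase, from 17.1 ± 4.75 to 2.46 ± 0.845 CPM (-2.79, edgeR adjusted p = 7.4e-06). In all 3 the groups did not overlap. With the length trend removed they were still lower, *Nfe2l1* at -1.12, *Bach2* at -1.3 and *Crebbp* at -1.81. The 4 higher genes, named after their values were seen, were the small MAF gene *Maff* at 1.31, *Rbx1*, a subunit of the CUL3 ligase, at 1.38, *Nfe2* at 1.75 and *Nfe2l3* at 0.42 on the log2 scale. The level of *Nfe2* was low, with 6 to 23 counts per control and 17 to 34 per *Supt6*-KO mouse (means of 0.287 and 0.977 CPM). It was therefore left out where at least 10 counts were asked of every mouse. *Nfe2l3* did not pass with upper-quartile factors (0.34, edgeR adjusted p = 0.086) or with the length trend removed (0.40, adjusted p = 0.059), and its sign turned with library totals (-0.29, adjusted p = 0.12). The following genes were also named after their values were seen. The other small MAF genes, *Mafg* and *Mafk*, were lower, at -0.50 and -0.44, and *Bach1*, the repressor of *Hmox1*, was lower at -0.32 (edgeR adjusted p = 0.021) but higher at 0.45 (adjusted p = 0.0053) with the length trend removed. *Sqstm1*, whose product p62 binds KEAP1, was lower at -0.80, and *Btrc* and *Gsk3b*, of the KEAP1-independent route of NRF2 degradation, were lower at -1.29 and -1.19, of which *Gsk3b* did not pass with the length trend removed (-0.17, edgeR adjusted p = 0.31).

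Around glutathione, 4 of 6 genes of synthesis and recycling were higher and 1 was lower, with a median of 0.71, and with library totals 2 were higher and 2 lower with a median of 0.04. Without *Supt6*-KO mouse 4, 4 were higher and 2 lower. *Glrx*, glutaredoxin, went from 118 ± 7.56 to 1030 ± 177 CPM (SD, n = 5 and 4; log2 fold change 3.13 with SE 0.16, edgeR adjusted p = 1e-07), and *Ggct*, of glutathione breakdown, from 202 ± 31.1 to 838 ± 313 CPM (2.06, adjusted p = 3.8e-05). *Gss*, glutathione synthetase, was 1.00 higher on the log2 scale (edgeR adjusted p = 0.0004), but 0.34 with library totals (adjusted p = 0.2). *Slc3a2*, the heavy chain that partners xCT, named after its value was seen, did not pass at -0.32 (edgeR adjusted p = 0.12), but was lower with library totals (-0.98, adjusted p = 0.0032) and with upper-quartile factors (-0.41, adjusted p = 0.044). The light and heavy chains of the exchanger thus had unlike values. The one lower gene, *Ggt1*, also named after its value was seen, had a mean of 0.986 CPM in the controls.

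Of 21 glutathione peroxidases and transferases, 12 were higher and 4 lower, with a median of 0.69 that turned to -0.04 with library totals (8 higher, 8 lower) and to -0.33 with the length trend removed (8 higher, 11 lower). The list is short in transcript length, with a median percentile of 8.7. *Gpx1*, a peroxidase, went from 284 ± 66.6 to 1627 ± 303 CPM (2.52), *Gsto1*, of the omega class, from 162 ± 22.2 to 910 ± 271 CPM (2.49), and *Gsta1*, of the alpha class, from 10.2 ± 1.72 to 84.3 ± 19.5 CPM (3.05), with edgeR adjusted p of 1.9e-06, 1.9e-06 and 2.3e-07. In these 3 genes no *Supt6*-KO mouse overlapped the controls. The 4 lower genes, named after their values were seen, were *Gstm1* at -1.47, *Gstt1* at -1.32, *Gsta3* at -0.87 and *Gstm2* at -0.56 (edgeR adjusted p = 0.048). With DESeq2, with RLE factors and without the 50 most abundant genes 3 were lower, as also without any 1 control or *Supt6*-KO mouse 3. With the replicate block 5 were lower. Members of the *Gsta*, *Gstm* and *Gstp* families share sequence, and how the counting divided their reads leaves single values uncertain.

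The thioredoxin and peroxiredoxin system had 9 of 11 genes higher and 1 lower, with a median of 1.09 and a median length percentile of 17.6. With library totals 5 were higher and 1 lower, with a median of 0.44, and with the length trend removed 6 were higher and 1 lower, with a median of 0.52. *Txn1*, thioredoxin, went from 106 ± 13.6 to 656 ± 137 CPM (log2 fold change 2.64 with SE 0.17, edgeR adjusted p = 4.4e-07). *Prdx1* and *Prdx4*, peroxiredoxins that reduce hydrogen peroxide, were higher by 1.65 (edgeR adjusted p = 4.5e-06) and 1.35 (adjusted p = 1.3e-05), but *Prdx4* did not pass with the length trend removed, at 0.31 (adjusted p = 0.14). The one lower gene was *Txnip*, whose product binds and inhibits thioredoxin. It was the most abundant of the list in the controls and went from 1398 ± 386 to 308 ± 110 CPM (-2.18, edgeR adjusted p = 6.8e-05), without overlap between groups. *Txnrd2*, the mitochondrial reductase, named after its value was seen, did not pass at 0.30 (edgeR adjusted p = 0.17), and its sign turned with library totals (-0.37).

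Among 17 genes of quinone and carbonyl detoxification, 9 were higher and 4 lower, with a median of 0.91 and a median length percentile of 24.5. With library totals 7 were higher and 7 lower, with a median of 0.17, and with the length trend removed 8 were higher and 7 lower, with a median of 0.26. *Cbr3*, a carbonyl reductase, went from 39.5 ± 8.61 to 141 ± 22 CPM (1.84, edgeR adjusted p = 4.6e-06), and *Esd*, an esterase of the formaldehyde route, from 81.3 ± 12.6 to 368 ± 145 CPM (2.18, adjusted p = 1.2e-05). *Adh7*, an alcohol dehydrogenase that also acts on retinol, was higher by 0.91 (edgeR adjusted p = 0.01), with overlap between groups, and did not pass with library totals, at 0.17 (adjusted p = 0.52). The 4 lower genes were *Aldh1a1*, which makes retinoic acid, at -1.97 (edgeR adjusted p = 1e-06), and, named after their values were seen, *Aldh3a1* at -1.16, *Ugt1a6a* at -1.14 and *Ephx1* at -1.12. *Aldh3a1* and *Ephx1* are textbook NRF2 targets in other tissues. Also named after their values were seen, *Akr1c18* at 5.17, *Akr1b8* at 1.84 and *Ptgr1* at 1.63 were higher. So were *Akr1c13* at 1.57, *Ugt1a7c* at 1.34 and *Cbr1* at 0.58. *Cbr1* turned to -0.12 (edgeR adjusted p = 0.51) with library totals and to -0.35 (adjusted p = 0.023) with the length trend removed. Single values of the *Akr1c* family and of the *Ugt1a* transcripts, which share exons, are uncertain.

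Around the supply of NADPH, the reductant on which these enzymes draw, 6 genes were listed, not all of whose products make it themselves. Of these, 1 was higher and 0 lower. *G6pdx*, the first enzyme of the pentose phosphate pathway, had 86.2 ± 9.18 CPM in the controls and 79.4 ± 27.3 CPM in *Supt6*-KO skin (log2 fold change -0.12, edgeR adjusted p = 0.60). *Tkt*, transketolase, did not pass at -0.29 (edgeR adjusted p = 0.12), and *Me1*, the cytosolic malic enzyme, did not pass at 0.07 (adjusted p = 0.78), turning to -0.67 (adjusted p = 0.0024) with library totals. Only *Idh1*, isocitrate dehydrogenase, was higher, by 0.44 (edgeR adjusted p = 0.0074), and it turned to -0.25 with library totals. With library totals 5 of the 6 genes were lower and 0 higher, where 54.6% of all genes were lower and 16.9% higher. Without *Supt6*-KO mouse 4, *Tkt* at -0.49 (edgeR adjusted p = 0.0014) and *G6pdx* at -0.39 (edgeR adjusted p = 0.013) were lower.

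Heme breakdown and iron storage had 7 of 8 genes higher and 0 lower, with a median of 0.73 and a median length percentile of 12.1. With library totals 1 was higher and 1 lower, with a median of 0.03, with the length trend removed 3 were higher and 3 lower, with a median of 0.07, and without *Supt6*-KO mouse 3, 4 were higher. *Blvra*, biliverdin reductase, went from 17.0 ± 1.90 to 48.5 ± 5.80 CPM (1.51, edgeR adjusted p = 1.8e-06). *Hmox2*, the constitutive heme oxygenase, was higher by 0.86 (edgeR adjusted p = 1.2e-05) and *Abcb6*, a porphyrin transporter, by 0.96 (adjusted p = 4.1e-05). With library totals neither passed, *Hmox2* at 0.17 (edgeR adjusted p = 0.23) and *Abcb6* at 0.26 (adjusted p = 0.13), and *Hmox2* was at 0.09 (adjusted p = 0.38) with the length trend removed. *Fth1*, the ferritin heavy chain and the most abundant of the list, was higher by 0.44 (edgeR adjusted p = 0.017), but turned to -0.27 with library totals and to -0.65 with the length trend removed. The erythroid and macrophage sums given beside *Hmox1* moved with this list too, and their part in it was not tested.

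Of the superoxide dismutases and catalase, 0 of 4 genes were higher and 2 were lower, and with library totals all 4 were lower. With the length trend removed 1 was higher and 3 were lower. *Sod3*, the extracellular form, went from 49.5 ± 4.57 to 7.13 ± 4.74 CPM (-2.78, edgeR adjusted p = 4.9e-05) and *Cat*, catalase, from 147 ± 8.89 to 86.7 ± 16.2 CPM (-0.77, adjusted p = 0.00043). *Sod1* did not pass at 0.29 (edgeR adjusted p = 0.06), and its sign turned with library totals (-0.40) and with the length trend removed (-1.18). Fibroblasts are a known source of *Sod3*. Of 6 fibroblast markers 0 were higher and 4 lower, *Col3a1* was the most abundant, and their sum was 4710, 4221, 2928, 5949 and 10542 CPM in the controls and 2398, 2957, 3781 and 1948 CPM in the *Supt6*-KO mice. The sums overlapped between groups, and over all genes 34.1% were higher and 36.8% lower. *Col3a1* itself was at 80.9% of the control mean, with overlap, whereas *Col1a1* at 8.01%, *Col1a2* at 19.3% and *Pdgfra* at 51.2% were below all controls in every *Supt6*-KO mouse, as *Sod3* was. *Dcn* at 59.4% and *Lum* at 103% of the control mean overlapped with the controls. The part of these cells in the *Sod3* result was not tested.

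Exporters of conjugates and enzymes that make oxidants completed the lists. Of 4 tested exporters, *Abcc3* was higher, from 5.11 ± 1.17 to 17.8 ± 0.770 CPM (1.80, edgeR adjusted p = 5.1e-06), and 3 were lower, *Abcc1* at -1.03 (adjusted p = 3.4e-05), *Abcc5* at -1.49 (adjusted p = 2.6e-05) and *Abcc4*, named after its value was seen, at -0.82, which did not pass with the length trend removed (-0.06, edgeR adjusted p = 0.57). These transcripts are long, with a median length percentile of 86.4, and the median of the list was -0.92, or -0.15 with the length trend removed. With it removed *Abcc3* was at 2.44, *Abcc1* at -0.23 (edgeR adjusted p = 0.045) and *Abcc5* at -0.81 (adjusted p = 0.0025). Of 11 NADPH oxidase genes, 2 were higher (18.2%), 2 lower (18.2%) and 7 did not pass, beside 34.1% higher and 36.8% lower of all genes. Their median was 0.37, and it turned to -0.34 with library totals (2 higher, 3 lower). The higher ones numbered 5 without *Supt6*-KO mouse 4, 4 without control 5, 5 with DESeq2 and 7 with the length trend removed, and the lower ones 0 with at least 10 counts in every mouse and 1 with DESeq2, with the replicate block and without control 1, control 5 or *Supt6*-KO mouse 2, 3 or 4. *Cyba*, the p22phox subunit shared by several oxidases, went from 11.2 ± 0.946 to 52.5 ± 17.1 CPM (2.23, edgeR adjusted p = 2.3e-06) and *Duoxa1*, a maturation factor of dual oxidase, from 6.05 ± 0.265 to 29.9 ± 6.32 CPM (2.3, adjusted p = 5.3e-07). With the length trend removed *Cyba* was at 0.86 (edgeR adjusted p = 0.00071) and *Duoxa1* at 1.79 (adjusted p = 4.4e-06). The lower ones were *Duox2* at -1.32 (edgeR adjusted p = 0.014) and *Duoxa2*, named after its value was seen, at -2.01, both under 1 CPM in every mouse, and *Duox2* did not pass with the length trend removed, at -0.53 (adjusted p = 0.25). *Cyba* is abundant in phagocytes. Of 7 neutrophil markers 6 were tested, with 4 higher and 1 lower, *Elane* had at most 3 counts in every mouse, *Mpo* was at 0 in 3 of 4 *Supt6*-KO mice, and *Cxcr2* was the most abundant. Their sum was 9.39, 7.34, 6.51, 8.06 and 4.38 CPM in the controls and 26.3, 20.7, 27.6 and 20.4 CPM in the *Supt6*-KO mice, and the macrophage sums given beside *Hmox1* moved with *Cyba* too. The part of either cell type in the *Cyba* result was not tested.

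The make-up of the libraries differed between groups in other cell types as well. The labelled tissue was checked by 6 keratinocyte markers, which were abundant in every mouse, with a sum of 26239, 26035, 25319, 28587 and 26036 CPM in the controls and 40669, 35501, 36021 and 28672 CPM in the *Supt6*-KO mice. *Krt10* had the highest mean in both groups, but in *Supt6*-KO mouse 4 *Krt14*, at 9613 CPM, was above *Krt10*, at 7775 CPM. One of these 6 was higher and 3 were lower. All 6 skeletal muscle markers were lower, from 3865 ± 420 to 653 ± 91.4 CPM (SD, n = 5 and 4), with *Acta1* the most abundant, and 5 of 6 sebocyte markers were lower, from 534 ± 61.0 to 209 ± 102 CPM, with *Elovl3* the most abundant. The sums of these 2 cell types did not overlap between groups. Their part in the NRF2 results was not tested.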

How the data were processed

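Skin RNA of 5 control and 4 *Supt6*-KO mice was measured. The authors sequenced paired ends, aligned to mm10 with Bowtie2 2.3.4.3 and estimated expression with RSEM 1.3.1. The submitters' processing notes also list HISAT and DESeq2 1.4.5. The annotation release and strandedness are not given in the sources used here. The deposited estimated counts are not normalized between mice, and 9.0% of them are not whole. They were rounded. The authors also deposited TPM for 6 libraries, used here for levels and relative length (counts per TPM, 16256 tested genes). Of 17943 gene identifiers 17911 matched RefSeq, and 32 did not. Libraries of a group differed by more than sampling noise (chi-square per degree of freedom at least 19.5).

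Genes with a count sum of at least 10 were tested with edgeR 4.0.16 (R 4.3.3; TMM, quasi-likelihood, no covariates, Benjamini-Hochberg adjustment over 16426 genes). Calls used adjusted p under 0.05, and 2-fold calls were counted apart. Ratios used a pseudocount of 0.5 and two-sided exact permutation tests. Named genes are *Supt6*, the 10 genes and, per list, the 3 genes with the lowest adjusted p and the most abundant one, and any other list gene is marked in the text as named after its value was seen. The members, lists and tests were chosen with earlier results of these data known. Alternatives were 9 other settings, among them DESeq2 1.42.0, and 9 fits that each left out 1 mouse. On simulated counts with these group sizes and library totals, 80% of 100 genes changed 2-fold and 100% of 100 changed 4-fold were recovered, with 6 false calls among 16343 genes. The changed genes there were few, well expressed and balanced in direction. The spread between mice was fixed, and there was no shift in library composition or with transcript length. These rates therefore check the test alone and do not measure errors from scaling in the real data. The sample titles number the libraries by mouse, and each was taken as 1 animal. Depth was 29627341 to 30967107 counts per mouse, and counting error only bounds values near 3 counts. Tables were made with Python 3.11.15, pandas 2.3.3, scipy 1.17.1 and matplotlib 3.10.9.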

Additional observations from a re-analysis of the deposited data

Results flagged for a closer look

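In all, 6 of 112 groups of values checked held 1 mouse that stood far from the others of its group by Dixon's criterion, where chance alone gives about 5.6. *Hmox1* in control 1 was 62.9 CPM beside a group median of 55.5. *Aldh1a1* in control 5 was 49.6 CPM beside 38.4, and *Abcb6* in the same mouse was 11.7 CPM beside 12.5. *Abcc5* in *Supt6*-KO mouse 4 was 13.5 CPM beside 22. *Duoxa1* in control 1 was 5.59 CPM beside 6.13. The summed keratinocyte markers in control 4 were 28587 CPM beside 26036. For each of these 5 genes the *Supt6*-KO and control mice did not overlap with these mice included.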

How the results depend on the processing

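Among the 10 NRF2 genes, *Nfe2l2*, *Keap1*, *Nqo1*, *Gclm*, *Srxn1*, *Slc7a11* and *Osgin1* kept their direction and their side of the threshold in all 18 alternatives. The 3 count ratios were recomputed only without 1 mouse, with a pseudocount of 1 and with counts not rounded, and kept theirs. As their groups were fully separated, leaving out 1 mouse could not move them across the threshold. They were not recomputed with the length trend removed. With library totals 2771 of all genes were higher (16.9%) and 8970 lower (54.6%), and 29 genes of the lists were higher (27.9%) and 45 lower (43.3%). Signs turned with library totals for *Gclc* (-0.56), *Txnrd1* (-0.21), *Idh1* (-0.25), *Me1* (-0.67), *Fth1* (-0.27) and *Sod1* (-0.40), with the length trend removed for *Fth1* (-0.65) and *Sod1* (-1.18), with upper-quartile factors for *Me1* (-0.01), without *Supt6*-KO mouse 4 for *Gclc* (-0.08) and without mouse 2 for *Me1* (-0.10). *Txnrd1* did not pass with upper-quartile factors (0.44) or with a minimum of 10 counts in every mouse (0.47). Of 75 list calls, 55 held with library totals and 58 with the length trend removed, and 12 and 9 turned. *Hmox1* (0.23), *Gss*, *Adh7*, *Hmox2* and *Abcb6* did not pass with library totals, and *Prdx4*, *Hmox2* and *Duox2* did not with the length trend removed. *Tkt* and *G6pdx* passed as lower with library totals, *Tkt* also with upper-quartile factors and both without *Supt6*-KO mouse 4. *Sod1* passed as higher with DESeq2, with RLE factors and without control 2 (0.37) or *Supt6*-KO mouse 1 (0.37), and *Fth1* did not pass without *Supt6*-KO mouse 3 (0.36, edgeR adjusted p = 0.058). The causes of these changes were not tested.

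With 1 mouse left out, 6 to 7 of the 10 genes were higher and 2 lower, 45 to 52 list genes were higher and 22 to 30 lower, 5305 to 5729 of all genes were higher and 5669 to 6392 lower, and *Supt6* stayed between -1.66 and -1.47. The log2 fold change of *Gclc* ranged from -0.08 to 0.21 and that of *Me1* from -0.10 to 0.25.

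Deviations of same-numbered mice were hardly related (mean r = 0.128 over 4 pairs, against -0.025 over 16 others, and 1 of 4 *Supt6*-KO mice correlated best with its own number), so the numbers are not taken as pairs. With the replicate number as a block, 6 of the 10 genes were higher and 2 lower, 48 list genes higher and 26 lower, and 5251 of all genes higher and 5800 lower, with *Supt6* at -1.46, *Txnrd1* at 0.43 (adjusted p = 0.085 from edgeR) and *Me1* at -0.05.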
